A study of Homo sapiens with 9 samples.

Results

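The transcripts that moved together with both siRNAs to SNHG5, a long non-coding RNA, were described here, by setting the mean of the siRNA A and siRNA B groups against the control group. The cells were HCT116, an established human colorectal carcinoma line, and all of them received an siRNA at 25 nM, so the control cells were transfected too. A commercial siRNA with no target served as control. Poly(A) RNA was read as single ends of 50 bases, and the series holds 9 libraries, 3 in each of the groups control, siRNA A and siRNA B, all of which entered the comparison. All libraries came from 1 cell line, and the labels do not tell which of the study's siRNA sequences is A and which is B.

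Values are CPM, the reads of a gene scaled to the total reads of its library. A row was kept where 3 or more of the 9 columns held 1 CPM or more, which left 13893 of 15354 genes. A gene is called separated below when all 6 siRNA libraries lay above, or all 6 lay below, the 3 control libraries. In the deposited CPM 694 genes (5.0%) were separated higher and 4227 (30.4%) separated lower. The unequal numbers moved with the scaling of the libraries. After TMM scaling, in which the trimmed mean of the log ratios of most genes sets the level of each library, 1936 genes were separated higher and 2285 lower. Genes separated in the same direction on both scales numbered 2979, of which 694 were higher (5.0% of the genes tested) and 2285 were lower (16.4%), and these are the separated genes described below. The higher side was set by the deposited CPM and the lower side by the TMM scale, so the sides were cut unequally. The smallest absolute pooled log2 fold change was 0.339 among the higher genes and 0.116 among the lower. The text gives the deposited CPM of single libraries, and means, fold changes and tests on the TMM scale. At the edge of the rule, CAPNS1 was just inside with a lowest siRNA library of 405.2 CPM and a highest control library of 405.1 CPM, and MRPL48 was just outside with 38.27 and 38.28 CPM.

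siRNAs are loaded on Argonaute proteins and guide them to complementary transcripts, which are then cleaved or destabilised, and each siRNA can also lower other transcripts through matches of its seed. A pair of siRNAs with different sequences is used so that effects of 1 sequence can be told from effects of the shared target. SNHG5 belongs to the small nucleolar RNA host genes, whose introns hold small nucleolar RNAs (snoRNAs) that guide the chemical modification of ribosomal RNA. Many spliced host transcripts begin with a run of pyrimidines, as ribosomal protein mRNAs do, and many are translated and then decayed in the cytoplasm. Read counts do not measure whether SNHG5 is translated.

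SNHG5 itself was higher, not lower, in every library labelled as a knock-down, and directions below are therefore those between libraries as labelled. In control it had 35.6, 26.3 and 28.6 CPM. With siRNA A it stood at 63.9, 50.0 and 61.5 CPM, and with siRNA B at 47.8, 47.7 and 45.2 CPM. Pooled over the siRNAs the log2 fold change came to 1.06 (SE 0.11; limma gave an adjusted p = 3.00e-05), and the groups did not overlap. The annotated SNHG5 gene (chr6:86360209-86388650, minus strand, GRCh37) overlaps PKMP3, and reads were summed over the gene, so a change of 1 isoform is not resolved.

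The libraries held 15566530 to 23277549 reads, and 1 CPM stood for 15.6 to 23.3 reads. Of the colon carcinoma markers, KRT8, KRT18, KRT19 and EPCAM stood at 94.6 to 1601 CPM in every library and CDX2 at 7.58 to 16.7 CPM, while CDH17 and CEACAM5 were near 0. Of the leukocyte and fibroblast markers in the table, CD14, LYZ, COL3A1 and LUM stayed at or under 0.556 CPM in every library, and COL1A1 stood at 8.55 to 19.5 CPM. Every siRNA library was below every control library for CDX2 and COL1A1 on both scales and for EPCAM in deposited CPM alone. KRT8 and KRT19 went the other way, with every siRNA library above every control library on both scales. In deposited CPM the groups overlapped for KRT18, CDH1 and VIL1, so the epithelial markers did not move together. The part of these markers in the results was not tested. In bulk RNA, a change in the number of cells in a given state and a change in RNA per cell cannot be told apart. Scaling by library totals alone moved the median log2 fold change of all genes from -0.02 to -0.27, so changes are given relative to the TMM scale.

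The pooled comparison called 6322 genes (45.5%), which means that limma gave them an adjusted p-value under 0.05. Of the genes tested 2894 were called higher (20.8%) and 3428 lower (24.7%). These shares are the background for the pooled TMM-scale counts of every list below. Between the siRNAs 5152 of the 13893 genes (37.1%) differed, 2471 of them higher with siRNA A and 2681 higher with siRNA B. Counts of members that differed between the siRNAs are to be read against those values. With library totals alone 1134 of the 13893 genes were called higher and 6141 lower, with a median of -0.27. List counts and medians under library totals are to be read against these values. All 694 genes separated higher and 2200 of the 2285 separated lower passed this threshold, which is no independent support, since separation was read from the same values. The median log2 fold change was 0.79 in the genes separated higher and -0.65 in those separated lower. A pooled change over 2-fold was seen in 165 and 375 of them, and one over 3-fold in 19 and 46. The sides were cut unequally, so the medians and shares of the higher and lower genes are not on a par.

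The genes with the largest pooled rise, beside the lists treated below, encoded proteins of quite different kinds. HMOX1, heme oxygenase 1, which degrades heme, stood at 94.8, 29.3 and 72.7 CPM in control, at 242, 174 and 164 CPM with siRNA A and at 779, 372 and 651 CPM with siRNA B. It rose 6.76-fold (pooled log2 value 2.76, SE 0.32, limma, adjusted p = 5.83e-05). Control replicate 2 was its lowest library, the siRNA groups did not overlap each other, and the rise was larger with siRNA B (A minus B -1.43, limma, adjusted p = 0.0111). PARD6B, a subunit of the PAR polarity complex, rose from 22.0, 22.7 and 24.8 CPM to 103, 120.2 and 112 CPM with siRNA A and to 101, 99.9 and 75.3 CPM with siRNA B. The spread within its groups was small beside the rise (log2 fold change 2.36, SE 0.11, limma, adjusted p = 2.56e-07). SMIM15, a small membrane protein, rose from 32.6, 34.5 and 32.8 CPM to 106, 99.7 and 114 CPM and to 125, 126 and 107 CPM. Its siRNA groups overlapped, with a difference of -0.01 on the log2 scale.

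Other genes among the 15 largest rises differed more between libraries. CCN1, a secreted matricellular protein, stood at 35.0, 28.6 and 43.7 CPM in control, at 196, 386 and 185 CPM with siRNA A and at 117, 135 and 101 CPM with siRNA B. NUAK2, an AMPK-related kinase, stood at 6.67, 5.80 and 6.17 CPM, at 30.0, 69.6 and 29.2 CPM and at 14.0, 19.2 and 13.3 CPM. In both genes siRNA A replicate 2 was the highest library, and both kept their call without it. DSC2, the desmosomal cadherin desmocollin 2, rose with a log2 fold change of 2.01 and ARRDC3, an arrestin-domain protein, with 1.84. TRIML2 and CYP4F3 rose by 1.81 each. The nuclear long non-coding RNA MALAT1 stood at 5924, 3011 and 4731 CPM in control and at 8727 to 18400.2 CPM in the 6 siRNA libraries (log2 fold change 1.89). EID3 (log2 fold change 2.72) lies inside TXNRD1 on the same strand and SNORA45 (1.79) inside RPL27A, so reads of their hosts may be among theirs. OVGP1 rose by 2.14 from control values of 1.49 to 3.49 CPM.

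The largest falls were more even across libraries than the largest rises. ADI1, an enzyme of the methionine salvage pathway, stood at 66.3, 56.1 and 72.6 CPM in control, at 6.94, 7.07 and 7.15 CPM with siRNA A and at 8.94, 7.53 and 6.10 CPM with siRNA B. It fell 6.58-fold (log2 fold change -2.72, SE 0.13, limma, adjusted p = 2.48e-07), and the siRNAs differed by 0.07 (limma, adjusted p = 0.729). PPP1CA, a catalytic subunit of protein phosphatase 1, fell from 206, 191 and 195 CPM to 26.5, 26.0 and 24.7 CPM and to 38.3, 24.8 and 37.8 CPM. The siRNA groups of PPP1CA overlapped, far below control (log2 fold change -2.43, SE 0.12, limma, adjusted p = 2.56e-07). CDC34, a ubiquitin-conjugating enzyme that works with SCF ligases, fell from 88.0, 78.0 and 71.1 CPM to 14.0, 15.4 and 13.03 CPM and to 11.2, 8.45 and 9.92 CPM. It was lower with siRNA B than with siRNA A (A minus B 0.64, limma, adjusted p = 0.0024). EIF3B, a core subunit of the translation initiation factor eIF3, fell from 582, 582 and 559 CPM to 148, 178 and 157 CPM and to 93.2, 89.8 and 82.8 CPM. The groups of EIF3B were all apart (log2 fold change -1.97, SE 0.09, limma, adjusted p = 2.48e-07).

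The other genes of the 15 largest falls held signalling and cytoskeletal proteins. SOX4, a transcription factor, fell from 182, 179 and 165 CPM to 27.7 to 47.2 CPM in the 6 siRNA libraries, and LRP5, a WNT co-receptor, from 40.6, 66.1 and 47.8 CPM to 7.08 to 16.6 CPM. Both had a pooled log2 fold change of -1.91. The semaphorin SEMA6B (-2.35), the small phosphatase CTDSPL (-2.29), the anti-proliferative BTG3 (-2.20), EHBP1L1 (-2.11), the RAB GTPase-activating protein TBC1D16 (-2.09), the endoplasmic reticulum protein CRELD2 (-2.04), the membrane-bound PALM (-2.01), the focal adhesion protein TNS4 (-2.004) and ZBED2 (-1.96) made up the rest. CTDSPL holds the microRNA gene MIR26A1 on the same strand, and TBC1D16 overlaps genes of either strand. ADI1, PPP1CA, SEMA6B, BTG3, EHBP1L1, CRELD2, EIF3B, ZBED2 and SOX4 all overlap genes of the opposite strand. Among the 15 largest rises DSC2, SMIM15, ATF3, MAFF, MALAT1, ARRDC3 and TRIML2 overlap such genes too. Whether reads were counted by strand is not given in the sources used here.

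**Figure D1:**
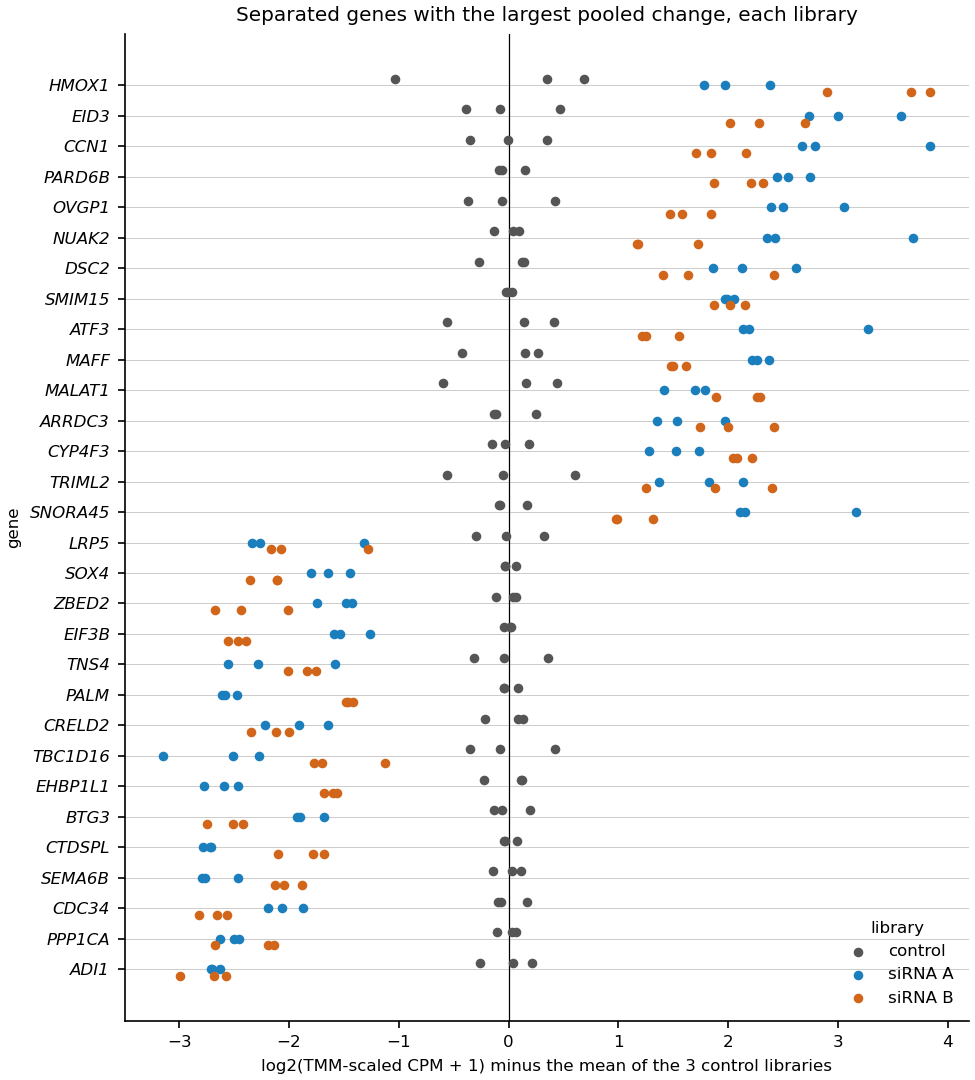
Each point is 1 library, placed by its log2(TMM-scaled CPM + 1) minus the mean of the 3 control libraries, for the 15 genes with the highest and the 15 with the lowest pooled log2 fold change. Control libraries lie around 0, all 6 siRNA libraries lie on 1 side of them for every gene, and siRNA A replicate 2 stands out to the right for CCN1, NUAK2 and ATF3.

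Functions were read from 40 gene lists, which held 1275 of the tested genes, among them 148 of the genes separated higher and 140 of those separated lower. The list that moved most was that of the cytosolic ribosomal proteins, the structural proteins of the ribosome. Of its 78 tested members 76 were called higher and 0 lower (97.4% against a background of 20.8%), with a median log2 fold change of 0.79. The exceptions were RPS6, with a log2 value of 0.21 (limma, adjusted p = 0.196), and RPS25, at 0.28 (adjusted p = 0.0689). With library totals alone 67 were called higher and 0 lower. The 26 separated members were all higher. RPL7 stood at 14.1, 12.2 and 12.7 CPM in control, at 49.0, 70.6 and 43.2 CPM with siRNA A and at 20.7, 25.0 and 17.3 CPM with siRNA B. RPL41 stood at 27.9, 23.9 and 30.3 CPM, at 76.2, 133 and 64.4 CPM and at 50.4, 55.9 and 45.2 CPM. In both genes all 3 groups were apart, and siRNA A was the highest.

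Summed over the list, ribosomal protein reads made up 2.47, 1.96 and 1.95% of the control libraries, 3.27, 3.28 and 2.63% of those with siRNA A and 2.996, 2.37 and 3.02% of those with siRNA B. In this sum siRNA B replicate 2 was below control replicate 1, so the groups overlapped. Ribosomal protein genes have many near-identical processed pseudogenes, and how the counting treated reads shared with them is not known here, so the levels of single members are uncertain. Of the 78 members 34 differed between the siRNAs, 32 of them higher with siRNA A. Of all 13893 genes 5152 differed (37.1%), 2471 of them higher with siRNA A.

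The host genes of small nucleolar RNAs moved in the same direction. Of 20 tested, 15 were called higher and 0 lower, with a median log2 fold change of 0.67 (under library totals, 10 and 1). ZFAS1 stood at 114, 70.5 and 72.1 CPM in control, at 172, 144 and 123 CPM with siRNA A and at 203, 139.8 and 195 CPM with siRNA B (log2 fold change 1.22, SE 0.17, limma, adjusted p = 1.75e-04). SNHG1 stood at 272, 267 and 261 CPM, at 537, 576 and 509.8 CPM and at 501, 475 and 437 CPM (log2 fold change 1.21, SE 0.09, limma, adjusted p = 3.06e-06). The groups overlapped for neither gene against control. SNHG3 and GAS5 rose too, with log2 fold changes of 1.09 and 0.87. SNHG5 is itself a member of this list, and 4 members had larger changes (TAF1D, with 1.23, beside ZFAS1, SNHG1 and SNHG3). Among 46 rows annotated as snoRNAs, 35 were called higher and 0 lower. They lie inside host genes on the same strand, and reads of 50 bases from poly(A) RNA cannot be assigned to the mature snoRNA.

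Translation factors split by gene. Of 43 tested, 27 were called higher and 6 lower, with a median log2 fold change of 0.37 (by library totals, 13 and 8). The elongation factor EEF1A1 rose from 314, 294 and 305 CPM to 611, 1016 and 618 CPM with siRNA A and to 578, 567 and 547 CPM with siRNA B (log2 fold change 1.36). Among the separated members the eIF2 subunit EIF2S3 rose by 1.19 and the eIF3 subunit EIF3L by 0.79. The scaffold EIF4G1 fell from 657, 970.2 and 816 CPM to 383, 479 and 460.0 CPM and to 303, 305 and 274 CPM (log2 fold change -0.87), and the eIF4E-binding EIF4EBP2 by 0.40 on the log2 scale. Of 54 splicing factors 33 were called higher and 4 lower (median 0.34), or 11 and 8 with library totals alone (median 0.06), with the splicing factor kinase CLK1 (1.34) and HNRNPA1 (0.91) highest and U2AF2 (-0.70) lowest. Of 43 ribosome biogenesis factors 14 were called higher and 8 lower, with a median of 0.17. With library totals alone 2 were called higher and 17 lower, and the median was -0.11. When a library was left out, 7 to 19 were called higher, most changed by control replicates 2 and 3, and 5 to 9 lower, most changed by control replicates 1 and 3 and siRNA A replicate 3.

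**Figure D2:**
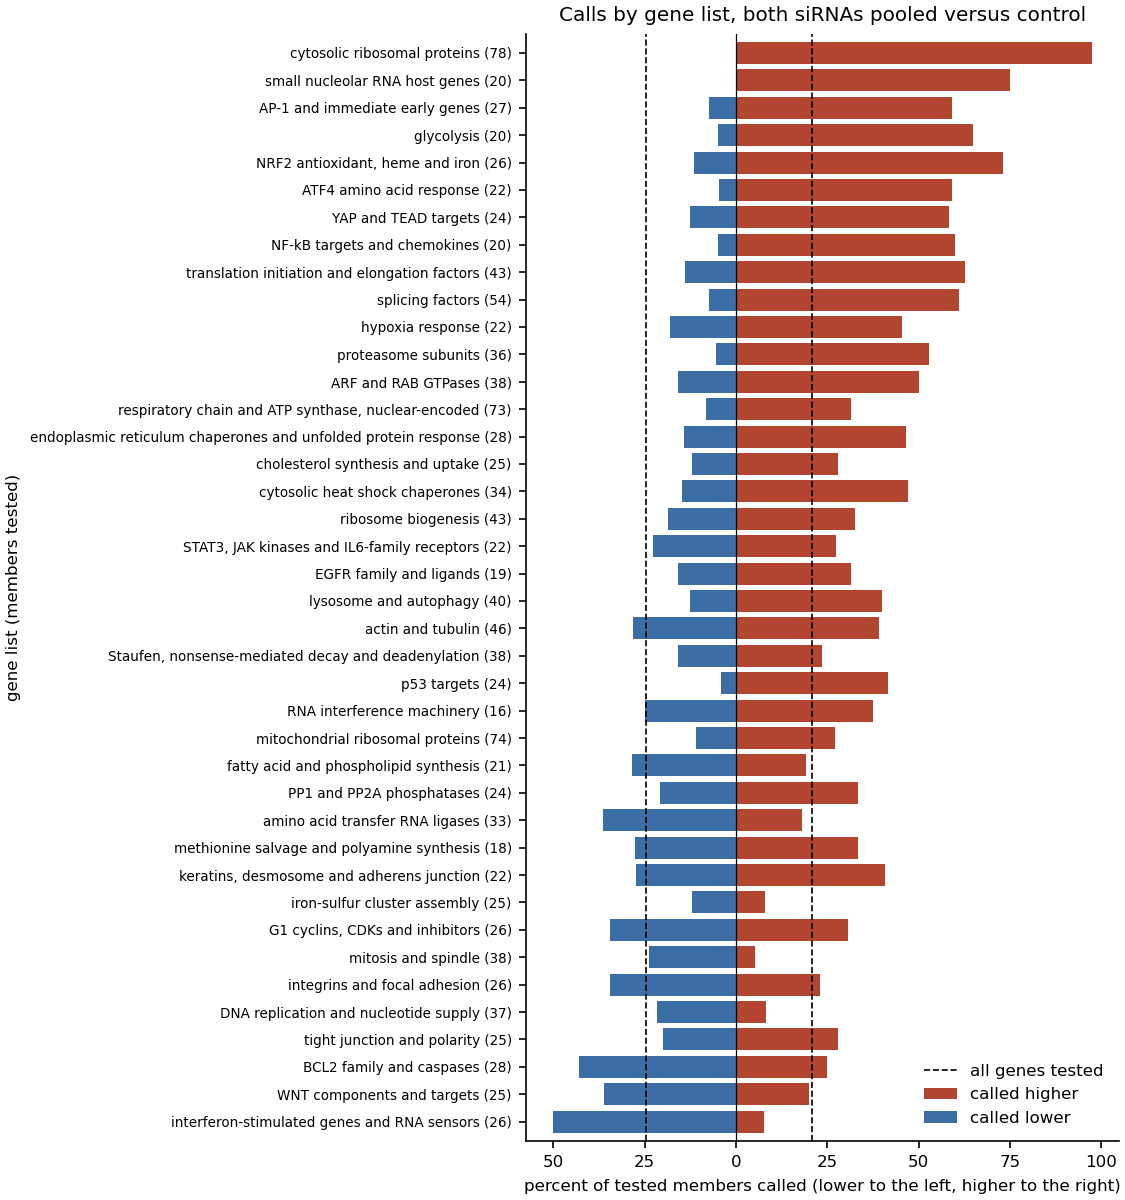
Bars give the percent of the tested members of each gene list called lower (left) or higher (right) in the pooled comparison (limma, adjusted p under 0.05), ordered by the median log2 fold change. The dashed lines are the shares over all genes tested, 20.8% higher and 24.7% lower, and the bar of the cytosolic ribosomal proteins reaches 97.4%.

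Ribosomal protein and many host gene transcripts begin with a pyrimidine run, called a 5′ terminal oligopyrimidine tract, which ties their translation to growth signals. RefSeq windows around the start site (GRCh38.p14) were found for 10226 tested genes. The lines below show 5 bases before and 20 bases from the start site, with the run in capitals. Capitals begin at most 3 bases before the start site, and pyrimidines further upstream were left in lower case. They were picked from list members separated higher that carried a run of at least 7 pyrimidines. Other members separated higher, among them RPL17, RPL9, RPL10 and GAS5, had no such run. That of SNHG5 was 6 bases long and missed the cutoff.

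RPL41, chr12:56116628-56116652, plus strand: ccTTTCTCTCggccttagcgccatt

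RPS27, chr1:153990757-153990781, plus strand: tcgCTCCTTTCCggcggtgacgacc

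RPL13A, chr19:49487603-49487627, plus strand: tcCTCCTTTTCCaagcggctgccga

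EEF1A1, chr6:73521013-73521037, minus strand: acgTTCTTTTTCgcaacgggtttgc

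EIF2S3, chrX:24054951-24054975, plus strand: ccTTCCTCTTTTggcaacatggcgg

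ZFAS1, chr20:49278637-49278661, plus strand: tcgTTCTTTCgcgtctgcggtgccc

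A run of at least 7 pyrimidines starting within 3 bases of the start site was present in 45 of 63 ribosomal protein windows (71.4%), in 9 of 34 translation factor windows (26.5%), in 5 of 17 host gene windows (29.4%) and in 8.62% of all windows. Among all genes with such a run 29.3% were called higher and 19.8% lower, against 20.6% and 25.8% of those without. Without the 3 lists named the shares were 24.8% and 21.2% with a run and 20.3% and 25.9% without. Ribosomal protein genes were called higher with the run (95.6%) and without it (100%). A run of letters in a window is a description, and the start sites in use in these cells were not measured.

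Genes of the oxidative stress and iron response were higher as a list. NRF2 is the transcription factor that switches on antioxidant genes, and ferritin, made of a heavy chain (FTH1) and a light chain (FTL), stores iron. Of 26 tested members 19 were called higher and 3 lower (73.1% and 11.5%), with a median of 0.50 (12 and 5 with library totals alone). FTH1 stood at 687, 627 and 726 CPM in control, at 1469, 1479.7 and 1261 CPM with siRNA A and at 1867, 2099 and 1565 CPM with siRNA B (log2 fold change 1.53, SE 0.13, limma, adjusted p = 7.57e-06). FTL stood at 1224, 1025 and 1002 CPM, at 2666, 2769 and 2123 CPM and at 2776, 2174 and 2854 CPM (log2 fold change 1.53, SE 0.14, limma, adjusted p = 1.06e-05). All 6 siRNA libraries of both ferritin chains were far above control, and the siRNAs did not differ beyond their spread (A minus B -0.23 and 0.11, adjusted p = 0.251 and 0.601). The cystine transporter SLC7A11 (1.34), the glutathione synthesis subunit GCLM (1.26), NFE2L2, which encodes NRF2 (0.89), and the quinone reductase NQO1 (0.83) rose as well. The members that fell were FECH, which inserts iron into heme (-0.62), the biliverdin reductase BLVRB (-0.53) and the transporter ABCC3 (-0.38). BLVRB and ABCC3 were not called after GC correction (limma, adjusted p = 0.0568 and 0.0726). Nor was BLVRB without control replicate 1 (adjusted p = 0.0562) or ABCC3 without control replicate 2 (0.0793).

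The amino acid response driven by the transcription factor ATF4 was higher in 13 of 22 members and lower in 1, with a median of 0.49 (under library totals, 9 and 3). ATF3 stood at 30.9, 15.9 and 24.7 CPM in control, at 85.5, 173 and 84.2 CPM with siRNA A and at 63.2, 45.7 and 48.5 CPM with siRNA B (log2 fold change 1.94, SE 0.25, limma, adjusted p = 1.17e-04). CEBPB stood at 31.8, 23.5 and 23.0 CPM, at 63.7, 62.3 and 47.0 CPM and at 51.6, 36.2 and 44.6 CPM (log2 fold change 1.21). Each siRNA library was above each control library for both genes. PHGDH, the first enzyme of serine synthesis, was the member called lower, at 46.9, 37.1 and 40.2 CPM in control, 42.8, 26.9 and 38.03 CPM with siRNA A and 15.2, 9.49 and 13.1 CPM with siRNA B. Its fall lay with siRNA B (A minus B 1.59, limma, adjusted p = 6.87e-05).

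The C/EBP-ATF response element, searched as TGATGNAA on both strands of the 300 bases from 250 before to 50 after the start site, was found in 4 of 19 promoters of this list (21.1%) and in 1.65% of all 10226. All 4 genes were called higher, as were 13 of the 22 tested members of the list. The 4 are shown with 8 bases on either side where the window allows it. The match is in capitals and reads as the reverse complement in CHAC1 and SLC3A2.

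ATF3, chr1:212565208-212565231, plus strand, log2 fold change 1.94: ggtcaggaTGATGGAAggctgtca

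CHAC1, chr15:40953254-40953277, plus strand, log2 fold change 0.99: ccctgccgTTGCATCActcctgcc

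ASNS, chr7:97872461-97872484, minus strand, log2 fold change 0.63: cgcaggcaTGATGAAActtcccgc

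SLC3A2, chr11:62881728-62881748, plus strand, log2 fold change 0.56: aggactccTTACATCAgctcc

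Chaperones and folding enzymes of the endoplasmic reticulum were mixed. Of 28 members 13 were called higher and 4 lower (median 0.25), but 3 and 7 with library totals alone, where the median was -0.04. Without control replicate 2 the number called higher was 8. DNAJB9 (1.12), calnexin (CANX, 0.86), BiP (HSPA5, 0.69) and P4HB (0.61) were higher, and CRELD2 (-2.04), calreticulin (CALR, -0.74) and PDIA4 (-0.47) lower. CALR stood at 1184, 1213 and 1169.9 CPM in control and at 483 to 635 CPM in the 6 siRNA libraries, and CANX at 859, 934 and 904 CPM in control and at 1102 to 1657 CPM. CALR and CANX are related lectin chaperones and moved in opposite directions. The endoplasmic reticulum stress element was present in 6 of 26 promoters of this list (23.1%) and in 0.127% of all, and its carriers included genes called in either direction.

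HSPA5, chr9:125241386-125241414, minus strand, log2 fold change 0.69: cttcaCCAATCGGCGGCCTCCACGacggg

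CANX, chr5:179698773-179698801, plus strand, log2 fold change 0.86: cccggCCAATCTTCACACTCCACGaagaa

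CALR, chr19:12938379-12938407, plus strand, log2 fold change -0.74: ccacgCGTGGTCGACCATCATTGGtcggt

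CRELD2, chr22:49918549-49918577, plus strand, log2 fold change -2.04: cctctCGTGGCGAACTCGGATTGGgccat

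The capitals mark the element, which reads as the reverse complement in CALR and CRELD2. The other elements searched were the antioxidant response element (TGACNNNGC), the sterol regulatory element (TCACNCCAC) and the heat shock element. The antioxidant element was in 5 of 19 promoters of the NRF2 list and 15.2% of all, with 3 of the 5 called higher and 1 lower. The sterol element was in 1 of 18 of the cholesterol list, which was not called, and 1.06% of all. The heat shock element was in 4 of 30 of the heat shock list and 0.323% of all, with 1 called higher and 0 lower.

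Immediate early genes, which are switched on within minutes of a stimulus, and AP-1 subunits were higher in 16 of 27 members and lower in 2, with a median of 0.64 (by library totals, 14 and 4). MAFF stood at 19.4, 12.1 and 17.2 CPM in control, at 68.2, 60.3 and 62.7 CPM with siRNA A and at 46.3, 38.6 and 40.5 CPM with siRNA B (log2 fold change 1.91, SE 0.14, limma, adjusted p = 2.33e-06). EGR1 stood at 82.8, 101 and 114 CPM, at 217, 302 and 219 CPM and at 188, 191 and 167 CPM (log2 fold change 1.37). The 3 groups of both genes were apart, with siRNA A highest. The members called lower were SRF (-0.31) and DUSP6. DUSP6, a phosphatase of ERK, fell from 129.8, 148 and 143 CPM to 45.7 to 71.9 CPM in the 6 siRNA libraries (log2 fold change -0.99). Without control replicate 3 or siRNA B replicate 3 the number called lower was 1 to 3. Targets of YAP and TEAD, the growth-controlling regulators of the Hippo pathway, were higher in 14 of 24 and lower in 3 (median 0.48), and in 7 and 4 with library totals alone, with CCN1 (2.50), CCN2 (1.37) and NT5E (1.12) highest among the separated members. NF2, an upstream inhibitor of YAP, was lower by 0.60 on the log2 scale.

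Targets of NF-kB were higher in 12 of 20 members and lower in 1 (median 0.45), and in 7 and 1 under library totals alone. IER3 stood at 359, 324 and 322 CPM in control, at 738, 1227 and 611 CPM with siRNA A and at 589, 584 and 566 CPM with siRNA B (log2 fold change 1.33). TNFAIP3 stood at 4.26, 3.99 and 4.68 CPM, at 9.98, 29.7 and 10.1 CPM and at 5.001, 5.87 and 4.90 CPM (log2 fold change 1.14, SE 0.29, limma, adjusted p = 0.00693). Its separation from control was narrow with siRNA B, and siRNA A replicate 2 was again the highest library. CXCL8, the chemokine interleukin 8, had the largest pooled value of the list (2.18) but was not separated, since the 3.06 CPM of siRNA B replicate 2 lay below the 3.72 CPM of control replicate 1. BCL3 was the member called lower (-0.65). Of the 20 members 15 differed between the siRNAs, all 15 higher with siRNA A, against 5152 of all 13893 genes (2471 higher with siRNA A).

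Interferon-stimulated genes and sensors of double-stranded RNA, which can respond to transfected RNA, went the other way. Of 26 members 2 were called higher and 13 lower (7.69% and 50.0%, against 20.8% and 24.7% of all genes), with a median of -0.33. Without control replicate 3 the number called lower was 7. OAS3 stood at 69.5, 109 and 95.3 CPM in control, at 19.1, 22.9 and 27.2 CPM with siRNA A and at 39.4, 47.3 and 36.3 CPM with siRNA B (log2 fold change -1.24, SE 0.15, limma, adjusted p = 7.53e-05). The RNA sensors TLR3 and IFIH1 had log2 fold changes of -0.84 and -0.77, with TLR3 at 1.95 to 2.89 CPM in control and 0.428 to 1.16 CPM in the siRNA libraries. The members called higher were the transcription factor IRF9 (0.74, at 0.771 to 1.24 CPM in control and 1.57 to 2.26 CPM in the siRNA libraries) and SP100 (0.30), and 1 of them was called when control replicate 2 or 3, siRNA A replicate 1 or siRNA B replicate 3 was left out.

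**Figure D3:**
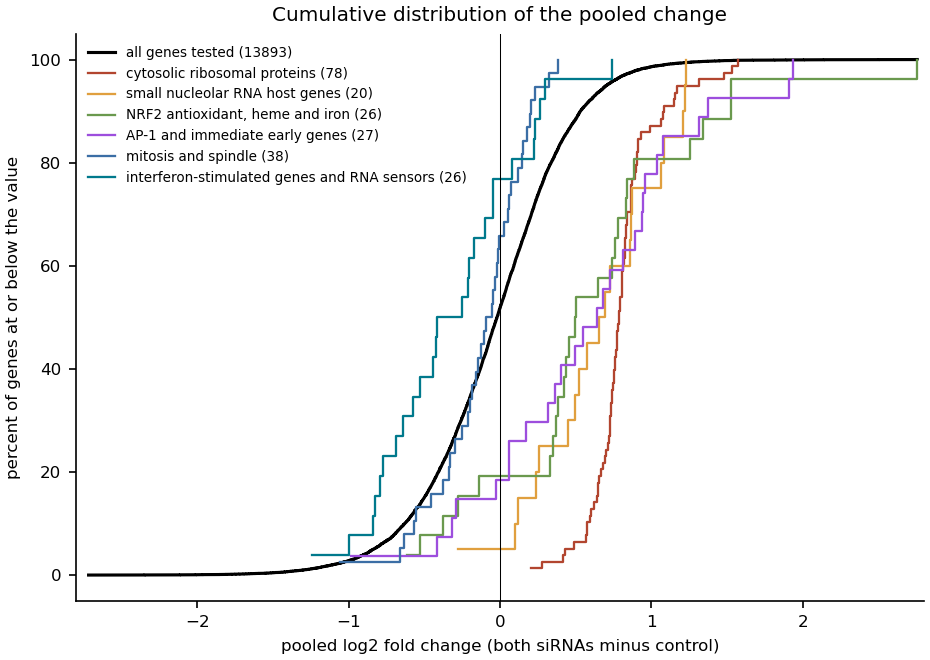
Cumulative distribution of the pooled log2 fold change (x axis) for all 13893 genes tested and for 6 gene lists, with the percent of genes at or below each value on the y axis. The curve of the 78 cytosolic ribosomal proteins lies wholly to the right of 0, those of the host gene, NRF2 and AP-1 lists mostly to the right of all genes, and that of the interferon list to the left.

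Genes of cell growth and death did not move as 1 block. Of 24 p53 targets 10 were called higher and 1 lower (6 and 8 by library totals), and there the median turned from 0.14 to -0.13. CDKN1A, the cyclin-dependent kinase inhibitor p21, stood at 220.5, 219 and 204 CPM in control, at 314, 347 and 283 CPM with siRNA A and at 641, 609 and 586 CPM with siRNA B (log2 fold change 1.32, SE 0.09, limma, adjusted p = 2.55e-06). GDF15 stood at 51.5, 47.2 and 45.3 CPM, at 63.8, 88.7 and 54.6 CPM and at 148, 248 and 154 CPM (log2 fold change 1.46). Both were higher with siRNA B than with siRNA A (A minus B -0.80 and -1.23). Of the 24 targets 16 were higher with siRNA B and 2 with siRNA A, against 2681 and 2471 of all 13893 genes.

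Among BCL2 family genes and caspases, 7 of 28 were called higher and 12 lower (25.0% and 42.9%), with a median of -0.16. PMAIP1, the pro-apoptotic NOXA, stood at 108, 95.0 and 108 CPM in control and at 211 to 301 CPM in the siRNA libraries (log2 fold change 1.54, SE 0.13, limma, adjusted p = 6.69e-06). The pro-apoptotic BAD fell from 26.0, 25.9 and 22.8 CPM to 8.89, 9.31 and 5.68 CPM with siRNA A and to 5.60, 3.30 and 5.03 CPM with siRNA B (log2 fold change -1.62). BAK1, which forms pores in the outer mitochondrial membrane, stood at 23.4, 21.3 and 23.8 CPM in control and at 5.57 to 9.86 CPM in the siRNA libraries (log2 fold change -1.25). The initiator caspase CASP9 was lower by 0.78. So promoters of cell death were found on both sides, and both siRNAs lay on the same side of control for each gene named.

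Few genes of the cell cycle were called higher. Of 37 genes of DNA replication and nucleotide supply 3 were called higher and 8 lower, and of 38 genes of mitosis 2 and 9, shares of 21.6% and 23.7% lower that are near the 24.7% of all genes. The shares called higher were 8.11% and 5.26% against 20.8%. With library totals alone 0 were called higher in each list and 23 and 22 lower, where 6141 of all 13893 genes were lower. On the TMM scale the median of the mitotic genes was -0.19 with siRNA A and 0.08 with siRNA B. Of the 38 mitotic genes 15 differed between the siRNAs, and 14 of these were higher with siRNA B. Of all 13893 genes 5152 differed, 2681 of them higher with siRNA B. The 3 replication genes called higher were RFC5, MCM3 and POLA1, a number that was 2 to 6 when a library was left out (most changed by siRNA A replicate 2 and siRNA B replicate 2). The mitotic genes called higher, UBE2C and NUF2, numbered 0 to 4 (control replicates 2 and 3 and siRNA B replicate 2). Without control replicate 3 the number of mitotic genes called lower was 5. The polymerase subunit POLD2 (-1.05), the replicative helicase factor CDC45 (-1.03) and BIRC5, the mitotic regulator survivin (-1.06), were lowest. E2F1, a transcription factor of the G1 to S transition, stood at 36.3, 35.5 and 35.3 CPM in control, at 9.70, 6.49 and 8.28 CPM with siRNA A and at 17.3, 9.73 and 15.9 CPM with siRNA B (log2 fold change -1.38, SE 0.15, limma, adjusted p = 4.03e-05). Cyclin D1 (CCND1) was higher, at 1147, 1217 and 1184 CPM in control and 1398 to 1703 CPM in the siRNA libraries (log2 fold change 0.69). Of 25 WNT components and targets 5 were called higher and 9 lower, and the number called higher was 1 to 5 when a library was left out, with changes over 1.5 times for control replicates 1 and 3, siRNA A replicates 2 and 3 and siRNA B replicates 1 and 3. NKD1, a feedback target, had a log2 fold change of -0.99, next to SOX4 and LRP5.

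In metabolism, glycolysis was higher in 13 of 20 members and lower in 1 (median 0.52), and in 9 and 3 with library totals alone. GAPDH stood at 2587, 2248 and 2226 CPM in control and at 2932 to 4027 CPM in the siRNA libraries (log2 fold change 0.87), and LDHA at 827, 808 and 847 CPM and at 887 to 1301 CPM (0.72). The exception was HK1, the hexokinase that starts the pathway, which fell from 62.9, 80.2 and 76.0 CPM to 26.3, 28.6 and 29.8 CPM with siRNA A and to 17.8, 18.7 and 16.5 CPM with siRNA B (log2 fold change -1.37, SE 0.10, limma, adjusted p = 3.06e-06). Hypoxia response genes were higher in 10 of 22 and lower in 4 (median 0.27), but in 6 and 7 with library totals alone, with P4HA1 (1.26) and ADM (1.22) highest and the oxygen sensor EGLN1 (-1.08) lowest. Without control replicate 3 the number called lower was 2. In methionine salvage, APIP (-0.69), which acts upstream of ADI1, and MAT2A (-0.44), the S-adenosylmethionine synthetase, were lower, and the spermine synthase SMS (0.75) was higher. Transfer RNA ligases were lower in 12 of 33 and higher in 6, but in 7 and 7 after GC correction. The 3 that fell most, IARS2 (-1.26), LARS2 (-0.81) and FARS2 (-0.67), all encode mitochondrial enzymes. Nuclear-encoded respiratory chain genes were higher in 23 of 73 and lower in 6, with a median of 0.25. With library totals alone the median turned to -0.03, and 0 were called higher and 12 lower. The number called higher was 8 to 36 when a library was left out, with changes over 1.5 times for control replicates 2 and 3, siRNA A replicate 1 and siRNA B replicates 1 and 2. NDUFAB1, the mitochondrial acyl carrier protein, fell most (-1.42).

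Junction and adhesion genes moved in both directions. Of 22 keratin, desmosome and adherens junction genes 9 were called higher and 6 lower, which turned to 6 and 12 with library totals alone. The keratin KRT8 was separated higher (0.83), and the envelope proteins PPL (-1.07) and EVPL (-0.50), which attach keratins to desmosomes, were separated lower. In the polarity list, where 9 in place of 5 were called lower without siRNA B replicate 2, PARD6B (2.36) and OCLN (0.97) stood against SCRIB (-0.75). Among focal adhesion genes with 5 in place of 9 called lower without control replicate 2, the integrin subunits ITGB1 (1.28) and ITGA5 (0.92) and the adaptor FERMT2 (1.42) were higher, and the tensins TNS4 (-2.004) and TNS3 (-1.40) and TLN2 (-1.30) lower. Ligands of the EGF receptor family were split, with EREG (1.27) and HBEGF (1.16) higher and BTC (-0.80) lower. RDX (0.99), EZR (0.86) and MSN (0.82), which link membranes to actin, were separated higher, and the related NF2 (-0.60) was separated lower.

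Of the RNA interference machinery 6 of 16 genes were called higher and 4 lower, which turned to 2 and 7 with library totals alone. AGO3 stood at 15.9, 16.6 and 12.7 CPM in control and at 19.3 to 25.3 CPM in the siRNA libraries (log2 fold change 0.82), and AGO1 at 71.8, 110.5 and 86.6 CPM and at 27.5 to 52.0 CPM (-0.94). AGO2, which cleaves siRNA targets, had a log2 fold change of 0.17 and was not called. In the list of Staufen, nonsense-mediated decay and deadenylation, 9 of 38 were called higher and 6 lower, and 5 higher without control replicate 1. With library totals alone 1 was called higher and 11 lower, and the median turned from 0.14 to -0.15. The decay helicase UPF1 (-0.59) and the decapping factor DCP1B (-0.76) were separated lower, while STAU1, which binds double-stranded RNA and starts decay, had a pooled log2 fold change of 0.41 (limma, adjusted p = 0.00141) that was not called with library totals alone (0.12, adjusted p = 0.268). STAT3 was separated lower (-0.60 on the log2 scale, limma, adjusted p = 3.06e-04). PITRM1, GLE1 and SPATS2 were chosen because the study named them. PITRM1 stood at 116, 134 and 113 CPM in control and at 59.0 to 91.8 CPM in the siRNA libraries (log2 fold change -0.41, SE 0.08, limma, adjusted p = 0.00133). For GLE1 the change was -0.23 (SE 0.08, limma, adjusted p = 0.0329), and it was not called when control replicate 2 or 3, siRNA A replicate 1 or siRNA B replicate 1 or 3 was left out (-0.23 to -0.19, adjusted p = 0.0545 to 0.137), nor with median-of-ratios size factors (adjusted p = 0.0536). SPATS2 had one of -0.05 (SE 0.12, limma, adjusted p = 0.747).

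The siRNAs were also set against each other, which shows how even the shared changes were. Across all genes 5152 (37.1%) differed between siRNA A and siRNA B. Among the separated genes this held for 224 of the 694 higher (32.3%) and 810 of the 2285 lower (35.4%), so separation from control did not mean an equal change with both. The change was the larger with siRNA A in 203 of these 224 and in 600 of these 810. The 3 separated genes with the largest difference in each direction were GLRX5, SNORA75 and ABHD14B, which were higher with siRNA A, and MAP4K4, HNRNPUL2 and PPL, which were higher with siRNA B. GLRX5, a glutaredoxin of iron-sulfur cluster assembly, stood at 121, 109.7 and 102 CPM in control, at 80.4, 68.9 and 68.3 CPM with siRNA A and at 17.6, 10.5 and 15.4 CPM with siRNA B (A minus B 2.43, limma, adjusted p = 1.99e-06). MAP4K4, a kinase upstream of JNK, went from 167, 194 and 193 CPM to 34.2, 41.5 and 39.3 CPM with siRNA A and to 118, 129 and 124 CPM with siRNA B (A minus B -1.51, limma, adjusted p = 9.52e-06). PPL showed the same order, at 36.1, 46.0 and 40.7 CPM, 7.42 to 10.3 CPM with siRNA A and 25.0 to 28.9 CPM with siRNA B. The pooled value of such genes describes mainly 1 of the siRNAs. SNORA75 (A minus B 1.599) lies inside NCL, and its difference without siRNA A replicate 2 was 1.0.

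**Figure D4:**
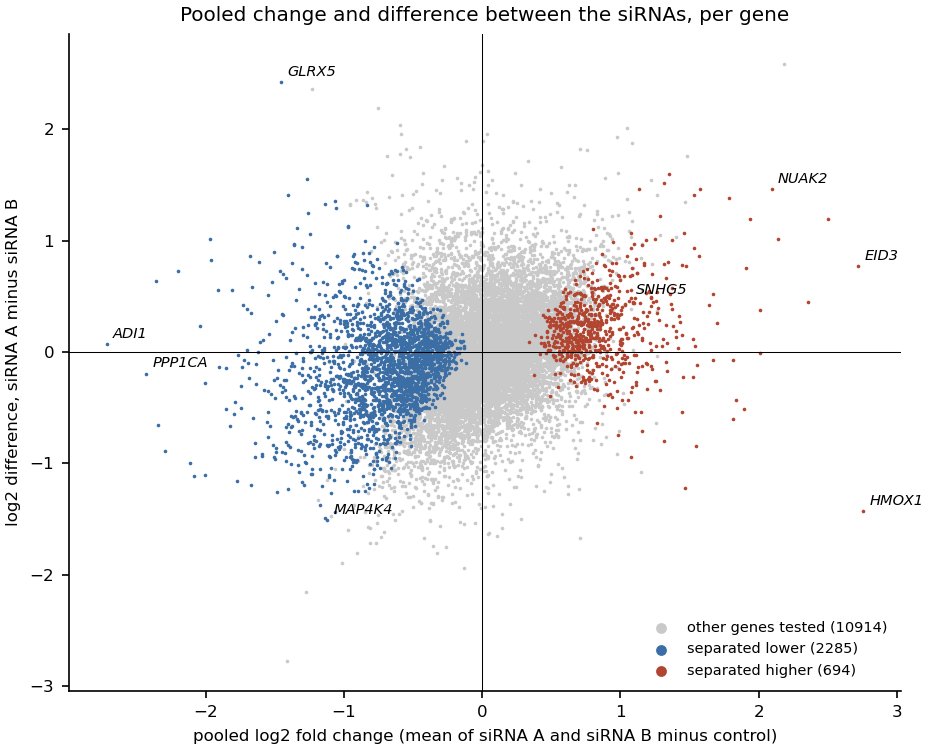
Each point is a gene, with the pooled log2 fold change on the x axis and the log2 difference siRNA A minus siRNA B on the y axis, coloured by whether it was separated higher (694), separated lower (2285) or neither. ADI1 and PPP1CA lie near 0 on the y axis, while HMOX1, NUAK2, GLRX5 and MAP4K4 lie more than 1 unit from it.

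Separated genes also differed in features that the rule did not use. The higher and lower sides were cut unequally, as said above, and the part of this in the differences was not tested. Transcript lengths and GC contents were known for 98.6% of the genes separated higher and 97.9% of those separated lower. The median GC content was 45.0% in the genes separated higher, 55.1% in those separated lower and 47.5% in the other genes. Over 5 equal bins of rising GC content, from the lowest bin to the highest, the share separated higher went from 7.26% to 2.30% and the share separated lower from 6.78% to 28.2%. The median transcript was 2670.5 bases long in the genes separated higher, 3386 in those separated lower and 3024 in the others, and the median level over all libraries was 63.1, 13.3 and 22.3 CPM. After the log2 values had been corrected for GC content in each library, 682 of 684 called genes separated higher and 1931 of 2154 called genes separated lower were still called in the same direction. The part of GC content, RNA quality or library preparation in these shares was not tested beyond that correction.

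**Figure D5:**
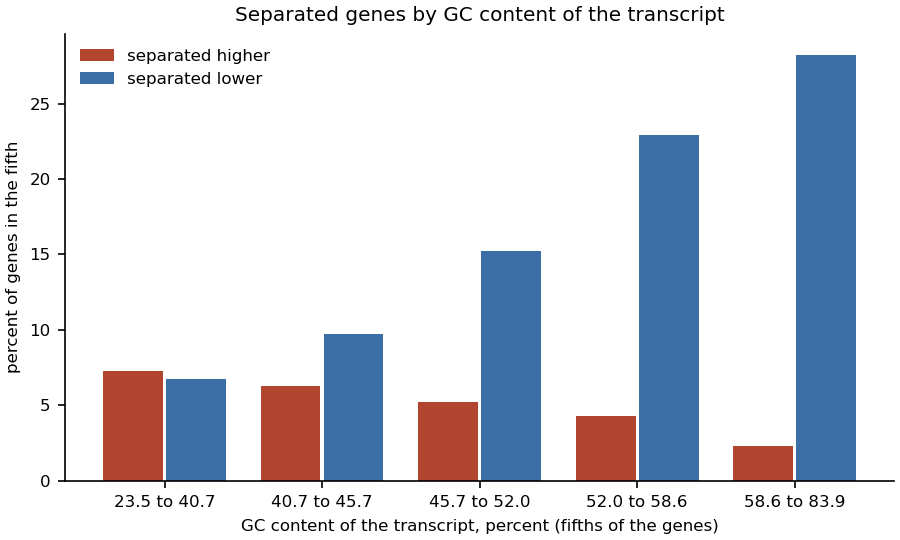
Percent of genes separated higher (red) and lower (blue) in each of 5 equal bins of the tested genes by the GC content of the transcript (x axis, percent). The share separated lower climbs from 6.78% to 28.2% with GC content, and the share separated higher drops from 7.26% to 2.30%.

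Families read from gene symbols, chosen after the values had been seen, gave a few further patterns. Of 35 kinesins, the motor proteins of microtubules, 4 were called higher and 17 lower, with a median log2 fold change of -0.30. Of 229 solute carriers 29 were called higher and 73 lower (median -0.12). Of 28 homeobox HOX genes 13 were called higher and 3 lower (median 0.16), and of 32 ubiquitin-conjugating UBE2 enzymes 16 and 4 (median 0.28). With library totals alone both medians were -0.01, against -0.27 over all genes. Zinc finger ZNF genes stood below the background in both directions, with 60 of 364 called higher and 64 lower. Transcripts of the mitochondrial chromosome made up 14.99 to 18.7% of the control libraries and 16.4 to 22.5% of the siRNA libraries, and 11 of its 31 tested genes were called higher and 2 lower.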

How the data were processed

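The authors deposited 1 table of CPM for the 9 libraries, made with TopHat2 and HTSeq on GRCh37 (hg19) per the submitters' processing notes. The deposited CPM were divided by library totals alone, and 100% of the values were whole multiples of the value of 1 read (tolerance 0.01 reads). The members and lists described were chosen with earlier results of these data known. Groups were compared with limma 3.58.1 (R 4.3.3) on log2(CPM + 1) after TMM scaling, a scale that understates changes of low genes, with a mean per group, a variance trend, all 9 libraries and Benjamini-Hochberg adjustment over 13893 genes. edgeR 4.0.16 (quasi-likelihood) and DESeq2 1.42.0 were run on the recovered reads as alternatives and called 6389 and 6572 genes. Other alternatives were library totals alone, median-of-ratios size factors, a pseudocount of 0.1, no filter, a filter at 5 CPM, GC correction, a replicate block, and each library left out. The scale of separation, the pyrimidine run and the symbol families were added after seeing the data. The 3 libraries of a group are biological replicates by the study's methods, and no pair agreed within sampling noise (chi-square per degree of freedom at least 12.9).

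Named genes were the 15 highest and 15 lowest among called genes separated on both scales, up to 3 per direction in each list, 6 genes of the study, and the 3 most different per direction between the siRNAs. Other genes were named to complete a list. Gene names, coordinates, lengths and GC content came from GENCODE v44 lifted to GRCh37, which matched 14871 of 15354 identifiers. Promoter windows came from RefSeq (GRCh38.p14) and were matched by symbol. Depth gave a floor, at 3 reads, of 0.129 to 0.193 CPM, which covers counting error only. The fits were run on simulated data with known fold changes in a small part of the genes, which cannot test the choice of scaling. Plots used Python 3.11.15 and matplotlib 3.10.9.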

Additional observations from a re-analysis of the deposited data

How the results depend on the processing

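The numbers of genes called moved by less than 1.5 times under every alternative but one. With library totals alone 1134 genes were called higher and 6141 lower. The numbers separated moved with the scale too, from 694 higher and 4227 lower in deposited CPM to 1936 higher and 2285 lower after TMM scaling, and to 2285 lower on both scales. Leaving out 1 library at a time gave 4819 to 6581 genes called, 2164 to 3030 higher and 2603 to 3551 lower, and 4005 to 5104 between the siRNAs. In deposited CPM it gave 719 to 967 genes separated higher and 4327 to 4886 separated lower. These all lie above 694 and 4227, since the rule then has fewer libraries to meet, so they do not measure stability. Of the 694 and 2200 called genes separated on both scales, 0 changed sign under any alternative. Their choice by separation left little room for a change of sign, so this is no independent support. Of 192 named genes 8 changed their call or sign in some alternative. SPATS2, never called, ranged from -0.11 to 0.05 with a library left out and changed sign without control replicate 1 (0.048) and without siRNA A replicate 2 (0.0093). Under library totals alone all 40 list medians moved and 17 changed sign. The labels do not say that a replicate number marks a shared batch, and not every same-numbered pair correlated above 0.1 in its deviations from the group means, so the numbers were not taken as a pairing. These correlations were 0.13 to 0.646 between control and siRNA A, -0.386 to 0.445 between control and siRNA B and 0.019 to 0.442 between the siRNAs, and a library correlated best with its own number in 12 of 18 checks. With the replicate number as a block 7311 genes were called, 3392 higher and 3919 lower, and 6239 between the siRNAs. Low genes limit the fold changes: with a pseudocount of 0.1 the log2 fold change of EID3 was 3.47 and that of SNORA45 2.89.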
